A study of Mus musculus with 2 samples.

Results

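The genes described here make, build into a matrix, bind or break down hyaluronan, and were followed in single cells sorted from intact mouse femur with muscle and from fracture callus. There were 9 of them among the 32285 genes in the count matrices: the hyaluronan synthases Has1 and Has2, Ugdh and Gfpt2 of the sugar supply, Tnfaip6 and Ptx3 of the crosslinked matrix, the receptor Cd44, the matrix partner Vcan and the hyaluronidase Hyal2. They were chosen by symbol, after Ptx3, Has1 and Tnfaip6 had led a subset of Pi16 fibroblasts in an earlier look at these same cells. Their high values in fibroblasts are therefore given as a description and were not tested.

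All mice carried CreERT2 knocked into the Clec3b gene (Clec3b.creERT2) together with the Ai14.R26.tdTomato reporter, and had received tamoxifen before surgery. The intact group was the unfractured contralateral femoral diaphysis with surrounding muscle, and the callus group was the fracture callus of the operated leg, both taken 3 weeks after a stabilized femoral fracture. Tissue of 3 littermates was pooled within each group, digested with collagenase and sorted for tdTomato, and each group gave 1 library, so neither group has replicates, no difference between them can be tested, and library and condition cannot be told apart. Expression of the reporter depends on the Clec3b promoter at the time of tamoxifen. Ages are not given in the labels.

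The 2 libraries held 1872 intact and 3987 callus barcodes, and 1207 and 3295 of them were kept, with 500 genes or more and no more than 10% of UMIs (unique molecular identifiers, one for each captured transcript) from mitochondria. The kept cells had a median of 4939 and 6843 UMIs. Before this filter the 2 libraries shared 1 barcode. The mice were labelled as male, but among stromal cells of 5000 UMIs or more Xist, which marks an inactive X chromosome, was seen in 97.5% of 204 from the intact library and 98.6% of 217 from the callus, and 4 Y-linked genes held 1 and 0 UMIs. Blood cells made up 60.8% and 71.0% of the cells kept, and stromal cells 24.1% and 8.86%. The paper found no meaningful tdTomato expression in its hematopoietic and endothelial populations and took them for artifacts of sorting. Cells were typed with marker lists that hold none of the 9 genes. Stromal cells fell into Pi16-gated fibroblasts (214 intact and 130 callus cells), Col15a1-gated fibroblasts (60 and 33), Thbs4-gated cells with tendon markers (4 and 22), cells with marrow stromal markers (BMSC-gated, 0 and 37), osteoblast-gated cells (1 and 33) and a mixed remainder (12 and 37). On the data the 6 genes of the Pi16 list summed to 8062 CPM (UMIs per 1000000 UMIs of all cells of a type) in intact Pi16-gated cells and 656 in intact Col15a1-gated cells, and the 6 genes of the Col15a1 list to 667 and 8953. In the callus the Col15a1 list did not mark its gate alone, with 5383 (5118 to 5658) in Col15a1-gated and 5957 (5652 to 6275) in BMSC-gated cells, although Col15a1 itself had 0 UMIs in the latter. Cells whose best stromal score led the next by less than 1.5 times numbered 2 intact and 6 callus in each of the Pi16 and Col15a1 gates. Types with fewer than 10 cells in a library are not described further.

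Hyaluronan is a long, unsulfated polysaccharide that synthases of the HAS family extrude from the plasma membrane, using 2 nucleotide sugars as substrates. UGDH makes one of them, UDP-glucuronic acid, and GFPT2 catalyses the first, rate-limiting step towards the other, UDP-N-acetylglucosamine. TSG-6, the protein of Tnfaip6, transfers heavy chains of inter-alpha-inhibitor onto hyaluronan, and pentraxin 3 (Ptx3) binds those chains and crosslinks the gel, as in the cumulus around the ovulated egg. CD44 is the main cell surface receptor, versican (Vcan) a large proteoglycan that binds hyaluronan, and HYAL2 a hyaluronidase at the cell surface.

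Promoter windows are shown for 5 of the 6 genes that were 2-fold or more higher in intact Pi16-gated than Col15a1-gated cells, so that the letters around their starts can be compared. The sixth, Has2, was not among the windows. Each runs from 250 bases before to 50 bases after a RefSeq start, in the direction of the gene, on GRCm38.p6. Capitals mark the κB consensus of NF-κB or the AP-1 motif TGANTCA, each searched on both strands. The windows are chr3:66219637-66219936 on the plus strand, chr11:49793905-49794204 on the plus strand, chr2:52037863-52038162 on the plus strand, chr17:17855139-17855438 on the minus strand and chr5:65435793-65436092 on the minus strand.
Ptx3: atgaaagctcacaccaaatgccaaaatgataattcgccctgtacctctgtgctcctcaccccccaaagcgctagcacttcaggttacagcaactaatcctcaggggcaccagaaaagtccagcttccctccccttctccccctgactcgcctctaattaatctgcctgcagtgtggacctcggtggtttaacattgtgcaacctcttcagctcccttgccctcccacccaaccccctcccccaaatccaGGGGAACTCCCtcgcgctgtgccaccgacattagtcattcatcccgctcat
Gfpt2: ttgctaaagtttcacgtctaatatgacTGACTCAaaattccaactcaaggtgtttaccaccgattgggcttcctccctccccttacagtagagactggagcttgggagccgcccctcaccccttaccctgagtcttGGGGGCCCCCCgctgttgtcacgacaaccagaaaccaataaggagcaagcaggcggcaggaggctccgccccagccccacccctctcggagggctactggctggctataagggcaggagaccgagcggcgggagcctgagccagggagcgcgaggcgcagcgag
Tnfaip6: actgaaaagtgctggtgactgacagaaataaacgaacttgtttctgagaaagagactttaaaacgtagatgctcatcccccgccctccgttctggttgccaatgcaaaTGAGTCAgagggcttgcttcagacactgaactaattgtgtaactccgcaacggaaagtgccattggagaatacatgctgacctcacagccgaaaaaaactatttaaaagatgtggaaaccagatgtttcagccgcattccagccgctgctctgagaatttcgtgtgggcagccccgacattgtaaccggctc
Has1: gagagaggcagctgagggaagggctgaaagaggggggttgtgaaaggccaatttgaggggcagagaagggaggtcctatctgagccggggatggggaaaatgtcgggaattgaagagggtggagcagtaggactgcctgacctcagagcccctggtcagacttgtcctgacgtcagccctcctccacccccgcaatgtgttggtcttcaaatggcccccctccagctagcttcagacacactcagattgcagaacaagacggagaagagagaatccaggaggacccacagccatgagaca
Ugdh: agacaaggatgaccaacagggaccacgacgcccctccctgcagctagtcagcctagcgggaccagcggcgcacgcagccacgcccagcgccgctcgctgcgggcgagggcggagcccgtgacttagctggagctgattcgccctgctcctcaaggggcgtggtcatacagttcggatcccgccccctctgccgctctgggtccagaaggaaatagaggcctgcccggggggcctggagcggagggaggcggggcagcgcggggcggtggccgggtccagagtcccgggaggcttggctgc
The Ptx3 window held 2 overlapping κB matches, printed as 1 run of capitals. They began at -1 and 0 from the RefSeq start and so ran past it. Gfpt2 held 1 AP-1 match, printed first, and 2 overlapping κB matches. Tnfaip6 held 1 AP-1 match. Has1 and Ugdh held neither. Of 32851 windows of this length, 8.46% held a κB match and 7.81% an AP-1 match, so a single match is not rare. Hyal2 held 1 κB match, while Cd44 and Vcan held neither motif. TATAAA was found in none of the 8 windows available and in 13.6% of all windows. A match describes letters only.

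Both synthases were found at their highest level in Pi16-gated fibroblasts of each library. Levels are given in CPM with exact Poisson 95% intervals that cover counting error only. They are compared between cell types and not between genes, since a 3′ count is not a measure of relative abundance of different transcripts. Shares of cells are given after every cell was thinned to 2000 UMIs, with exact Clopper-Pearson 95% intervals, because a deeper cell has more chance of showing any gene.

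Has1 (chr17:17843323-17855205, minus strand) stood at 880.3 CPM (834 to 928) in intact and 766 (714 to 822) in callus Pi16-gated cells. It was seen in 50.5% (43.3 to 57.8) of 194 intact and 45.4% (36.2 to 54.8) of 119 callus cells after thinning, and in 61.2% and 55.4% before it. The message was uneven among these cells: the 10% of cells with most Has1 held 50.3% of its UMIs in the intact and 45.5% in the callus library. Col15a1-gated cells had 99.4 (71.9 to 134) intact and 233 (181 to 296) callus CPM. In the callus, Thbs4-gated cells came between Pi16-gated and Col15a1-gated cells with 406 (333 to 490), and the intervals of these 3 neighbours did not overlap. Osteoblast-gated cells had 16.3 (8.43 to 28.5). The 37 BMSC-gated cells held 0 UMIs, which allows up to 12.6 CPM from 3 counts. Blood cells give the background of free RNA: Has1 was at 1.11 and 0.308 CPM there, and in 0.429% of 700 intact and 0.0888% of 2253 callus blood cells after thinning. Their median depth was 4252 and 7122 UMIs, against 7454.5 and 7536 in Pi16-gated cells.

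Has2 (chr15:56665627-56694539, minus strand, overlapped by its antisense gene Has2os) was also highest in Pi16-gated cells, at 246 CPM (222 to 272) in intact and 170 (145 to 197) in callus Pi16-gated cells. Thinned shares were 34.0% (27.4 to 41.2) and 18.5% (12.0 to 26.6), and shares before thinning 53.3% and 36.9%. In blood, Has2 was seen in 0 of 700 intact cells after thinning, so that up to 0.429% may hold one, and in 0.0444% of callus cells. Col15a1-gated cells had 37.0 (21.1 to 60.1) and 66.1 (39.8 to 103). Unlike Has1, Has2 was nearly absent from Thbs4-gated cells, with 2 UMIs in 22 cells (7.45 CPM, 0.902 to 26.9). BMSC-gated and osteoblast-gated cells held 0 Has2 UMIs. Among the gated blood types, neutrophils had the highest level, 1.98 and 2.19 CPM.

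**Figure D1:**
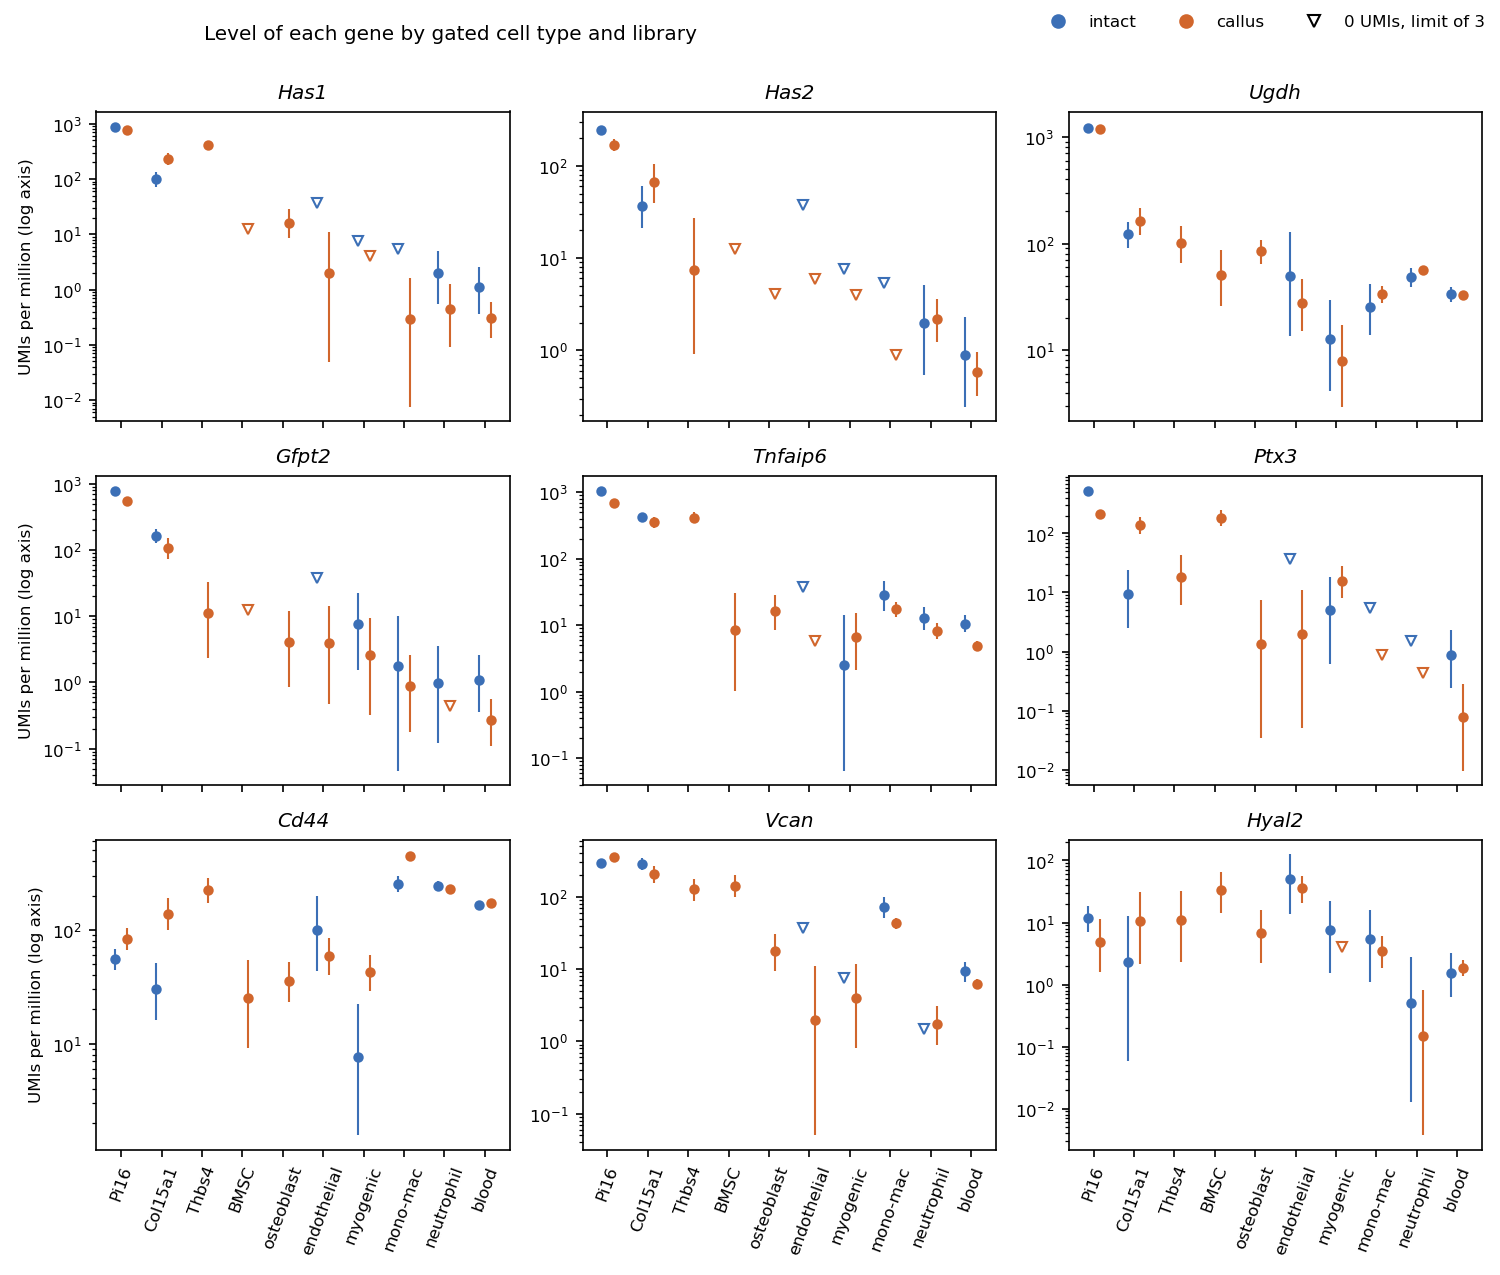
Level of each of the 9 genes, in CPM on a log axis, by gated cell type (intact in blue, callus in orange; bars are exact Poisson 95% intervals; open triangles mark types with 0 UMIs at the limit that 3 counts give; types with fewer than 10 cells are left out). Has1, Has2, Ugdh, Gfpt2 and Tnfaip6 peak in Pi16-gated cells of both libraries. Ptx3 is also highest there, but its callus interval overlaps those of BMSC-gated and Col15a1-gated cells. Cd44 is higher in monocyte-macrophages and neutrophils, and Hyal2 is at its highest in endothelial cells, at 50.0 and 35.5 CPM.

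The 2 enzymes of the sugar supply were seen in most Pi16-gated cells of both libraries. Ugdh (chr5:65413221-65435949, minus strand, sharing bases on its own strand with Gm43552 and Gm43289, so its reads may be split) had 1222 CPM (1167 to 1278) in intact and 1178 (1113 to 1246) in callus Pi16-gated cells, and was seen in 75.3% (68.6 to 81.2) and 72.3% (63.3 to 80.1) of them after thinning and 92.1% and 93.1% before. Col15a1-gated cells had 122 (91.8 to 160) and 164 (120 to 217). Ugdh also had a level outside fibroblasts: blood cells had 33.3 and 32.8 CPM, and neutrophils 48.6 (39.5 to 59.2) and 56.1 (50.7 to 62.01). Osteoblast-gated cells of the callus had 84.3 (64.7 to 108) and BMSC-gated cells 50.2 (25.9 to 87.7).

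Gfpt2 (chr11:49794178-49838613, plus strand) had 774 CPM (731 to 819) in intact and 546 (501 to 592) in callus Pi16-gated cells, with thinned shares of 72.7% (65.8 to 78.8) and 55.5% (46.1 to 64.6), against 86.4% and 78.5% before thinning and 0.143% and 0.0888% of blood cells. Col15a1-gated cells had 166 (130 to 210) and 108 (73.3 to 153). Mixed stromal cells had 322 (199 to 492) and 159 (117 to 211), intervals that overlapped those of Col15a1-gated cells. In the other types it was low, with 3 UMIs in Thbs4-gated cells, 3 in osteoblast-gated cells, 0 in BMSC-gated cells, and 1.11 and 0.27 CPM in blood. Its UMIs were spread over more of the cells than those of Has1, with 31.1% and 35.5% of them in the top 10% of Pi16-gated cells.

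Tnfaip6 had a level in Pi16-gated, Col15a1-gated and Thbs4-gated cells alike, highest in the first. Tnfaip6 (chr2:52038009-52056686, plus strand) had 1040.3 CPM (990.1 to 1092) in intact and 696 (646 to 748.5) in callus Pi16-gated cells, and thinned shares of 59.3% (52.0 to 66.3) and 50.4% (41.1 to 59.7), with 75.2% and 71.5% before thinning and 1.57% and 1.20% in blood. Col15a1-gated cells had 425 (366 to 491) and 355 (289 to 431), seen in 35.1% (22.9 to 48.9) and 39.4% (22.9 to 57.9) of them. Thbs4-gated cells had 417 (344 to 502), of which 1 cell held 39.3%, and their interval overlapped that of callus Col15a1-gated cells. BMSC-gated cells had 2 UMIs. In blood, Tnfaip6 was at 28.7 (16.4 to 46.6) and 17.6 (13.4 to 22.6) CPM in monocyte-macrophages and 12.9 (8.42 to 18.9) and 8.31 (6.29 to 10.8) in neutrophils.

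Ptx3 was held by fewer Pi16-gated cells and was unevenly spread over them. Ptx3 (chr3:66219910-66225805, plus strand, overlapped by Veph1 on the other strand) had 514 CPM (479 to 551) in intact and 214 (187 to 244) in callus Pi16-gated cells. It was seen in 33.0% (26.4 to 40.1) and 20.2% (13.4 to 28.5) of them after thinning, and the top 10% of cells held 67.6% and 71.9% of its UMIs. In intact Col15a1-gated cells there were 4 UMIs (9.24 CPM, 2.52 to 23.7). In callus Col15a1-gated cells there were 40 (139 CPM, 99.4 to 190), but they came from 6.06% of 33 cells and 72.5% of them from 1 cell. BMSC-gated cells of the callus, which held 0 UMIs of Has1, Has2 and Gfpt2, had 44 Ptx3 UMIs (184 CPM, 134 to 247), an interval that overlapped that of callus Pi16-gated cells. These were spread more widely, in 54.1% of 37 cells before and 20.6% (8.70 to 37.9) of 34 after thinning, and the highest cell held 13.6% of them. Blood held 4 and 2 Ptx3 UMIs, in 0.571% of intact cells after thinning and 0 of 2253 callus cells, which allows up to 0.133%.

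Cd44 was higher in pooled blood cells than in Pi16-gated fibroblasts, though not in every blood type. Cd44 (chr2:102811141-102901665, minus strand) was at 166 (155 to 179) intact and 170 (166 to 176) callus CPM in blood, and highest in plasmacytoid dendritic cells (410.3 and 304) and monocyte-macrophages (255 and 443). Monocyte-macrophages of the callus stood above those of the intact library, 443 (421 to 466) against 255 (215 to 300). Pi16-gated cells had 55.1 (44.0 to 68.1) and 83.3 (66.7 to 103). B lineage cells stood lower, at 41.9 (30.1 to 56.9) and 43.5 (37.1 to 50.8), as did erythroid cells, at 5.04 and 30.2. T or NK cells had 33.0 intact and 101 callus. Of the callus stromal types, Thbs4-gated cells were highest with 223 (171 to 288), followed by Col15a1-gated cells with 139 (99.4 to 190), whose interval overlapped those of Thbs4-gated and Pi16-gated cells. Intact Col15a1-gated cells had 30.05 (16.0 to 51.4).

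In the intact library Vcan did not set Pi16-gated apart from Col15a1-gated cells. In the callus it was 1.73-fold higher in Pi16-gated cells, with separate intervals. Vcan (chr13:89655312-89742509, minus strand) had 293 CPM (266 to 321) in intact Pi16-gated and 284 (236 to 339) in intact Col15a1-gated cells. In the callus these were 355 (319 to 393) and 205 (156 to 265), with thinned shares of 40.3% and 39.4%. The mixed stromal cells of the callus had 408 (339 to 488), which overlapped the level of Pi16-gated cells. BMSC-gated cells had 142 (98.5 to 199), 52.9% of it in 1 cell, and Thbs4-gated cells 127 (87.7 to 177). Monocyte-macrophages were the only blood type with a clear level, at 71.7 (51.3 to 97.7) and 43.1 (36.4 to 50.6).

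Hyal2 was sparse throughout. Hyal2 (chr9:107567945-107572779, plus strand) reached 50.0 (13.6 to 128) and 35.5 (21.01 to 56.0) CPM in endothelial cells, 33.5 (14.5 to 65.9) in BMSC-gated cells and 29.8 (15.4 to 52.1) in osteoclasts, and these intervals overlapped. Pi16-gated cells held 18 UMIs intact (11.7 CPM, 6.91 to 18.4) and 5 callus UMIs (4.84 CPM, 1.57 to 11.3).

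**Figure D2:**
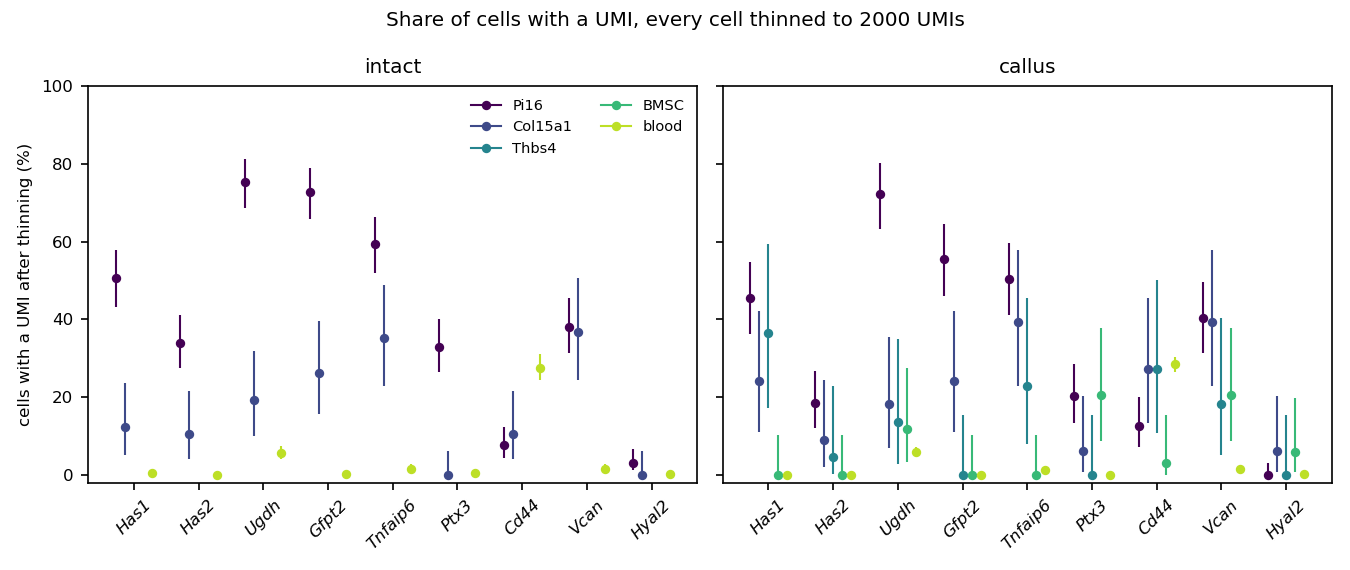
Share of cells with at least 1 UMI of each gene after thinning every cell to 2000 UMIs, by cell type, in the intact (left) and callus (right) library; bars are exact 95% intervals for counting error, and Thbs4-gated and BMSC-gated cells are drawn for the callus only. Ugdh was seen in 75.3% and 72.3% of Pi16-gated cells, against 5.57% and 5.99% of blood cells.

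The Pi16-gated and Col15a1-gated fibroblasts are the subsets that both libraries share, and the first comparison asked how far the genes set them apart. In intact tissue 6 of 8 genes with at least 20 UMIs were 2-fold or more higher in Pi16-gated cells, where 10.4% of 8334 genes were, and 0 were 2-fold lower, where 7.46% were. The folds were 55.6 for Ptx3, 9.97 for Ugdh, 8.86 for Has1, 6.66 for Has2, 4.65 for Gfpt2 and 2.45 for Tnfaip6. Cd44 (1.83) and Vcan (1.03) had overlapping intervals, and Hyal2 had too few UMIs. Ptx3, Has2 and Cd44 held 4, 16 and 13 UMIs in intact Col15a1-gated cells and reached 20 only through Pi16-gated cells. The genes were chosen with a Pi16 subset of these cells known. The counts of both libraries therefore describe that choice in part and test nothing. In the callus 4 of 8 were 2-fold or more higher, where 9.29% of 7355 genes were, and 0 were lower, where 7.78% were. These were Ugdh (7.20), Gfpt2 (5.06), Has1 (3.29) and Has2 (2.56). Here Has2 held 19 UMIs in Col15a1-gated cells and reached 20 only through Pi16-gated cells. Tnfaip6 stood at 1.96 and Ptx3 at 1.54. Without the 1 Col15a1-gated cell that held most Ptx3, a choice made after seeing the data, Ptx3 was at a log2 ratio of 2.41 in place of 0.62, and 6 genes were 2-fold higher. That cell was dropped from the Col15a1-gated side alone, while the Pi16-gated cells with most Ptx3 were kept. The rise of the Ptx3 ratio therefore follows from the choice and tests nothing. The median log2 ratio of the 8 genes was 2.48 intact and 1.16 callus, beside -0.0035 and -0.06 over all genes tested. Just inside the 2-fold line stood intact Tnfaip6, and just outside it callus Tnfaip6 and intact Cd44. When types were taken from clusters made without the 9 genes, the callus log2 ratio of Has2 was 0.16 in place of 1.36, that of Gfpt2 1.253 in place of 2.34, that of Ugdh 2.19 in place of 2.85 and that of Vcan 0.016 in place of 0.79, while Ptx3 was at 1.58 in place of 0.62.

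Other transcripts moved with these gates. The list of 16 immediate-early genes was lower in Pi16-gated cells, at 19208 CPM intact and 18079 callus, than in Col15a1-gated cells, at 37778 and 28934. Transcripts of blood origin (Ptprc and 6 globin, granule and lysozyme genes) summed to 6228 CPM in intact and 10533 in callus Pi16-gated cells and to 17738 and 1176 in Col15a1-gated cells. Between 40.2% and 94.7% of these blood UMIs came from 1 cell of each group, and Ptprc itself was at 1.30 and 15.5 CPM in Pi16-gated cells and at 0 UMIs in intact Col15a1-gated cells. Leaving out stromal cells with over 1% of such transcripts, also chosen after seeing the data, kept the counts of genes at 6 and 4. Few cells were left out by this step, so it says little about blood transcripts. Pi16-gated cells went from 214 to 211 intact and from 130 to 127 callus. Col15a1-gated cells went from 60 to 59 intact and stayed at 33 in the callus.

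Against blood cells 8 of the 9 genes were 2-fold or more higher in Pi16-gated cells of each library, where 28.9% of 11238 intact and 27.8% of 13199 callus genes were. Cd44 was the exception, 3.02-fold lower intact and 2.05-fold lower callus, where 22.1% and 21.5% of all genes were 2-fold lower. The folds ran from 7.51 for Hyal2 to 794 for Has1 in the intact library. Has1, Has2, Gfpt2 and Ptx3 held 5, 4, 5 and 4 UMIs in intact blood cells and 8, 15, 7 and 2 in callus blood cells. They therefore reached 20 UMIs only through Pi16-gated cells, and intact Hyal2 was compared on 18 and 7 UMIs. The count of higher genes follows in part from that minimum and tests nothing. Callus Hyal2, at 2.62, had overlapping intervals, and its log2 ratio of 1.39 was 0.29 with a margin of 2 times between stromal types and 0.78 with types from clusters, which left 7 genes higher. Without the highest Scrublet scores callus Cd44 was at a log2 ratio of -0.99 and no longer 2-fold lower.

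The next comparison set callus against intact within Pi16-gated cells. Of 9 genes, 0 were 2-fold or more higher in the callus, where 3.73% of 8972 genes were, and 2 were lower, where 3.02% were. Ptx3 was 2.40-fold lower, with intervals apart. Hyal2 was 2.41-fold lower on 18 and 5 UMIs, with intervals that overlapped. Has1 was 1.15-fold, Gfpt2 1.42-fold, Has2 1.45-fold and Tnfaip6 1.495-fold lower, each with separate intervals. Those intervals cover counting error of pooled UMIs alone. Averaged over cells, the log2 ratios of Has1, Gfpt2, Has2 and Tnfaip6 were smaller. They were -0.054, -0.42, -0.24 and -0.28, in place of -0.20, -0.50, -0.54 and -0.58. Ugdh (1.04-fold lower), Vcan (1.21-fold higher) and Cd44 (1.51-fold higher) had overlapping intervals. The median log2 ratio was -0.50 over the 9 genes and 0.02 over all genes tested. In the same cells the NF-κB and cytokine list of 16 genes stood at 3868 CPM intact and 2980 callus and the immediate-early list at 19208 and 18079. Of the markers of other cells, the 8 genes of the Thbs4 list were at 33.0 and 306 CPM and the 8 myogenic genes at 102 and 481. Among the myogenic genes Pax7, Myod1, Myf5, Cdh15 and Chodl had 0 UMIs in callus Pi16-gated cells. The Col15a1 list stood at 667 and 643, the BMSC list at 181 and 179 and the osteoblast list at 0.65 and 2.91. The Pi16 list stood at 8062 and 6478. These lists were set beside the result and their part in it was not tested.

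In Col15a1-gated cells Has1 stood the other way, at 99.4 CPM intact and 233 callus with separate intervals. Has2 (37.0 and 66.1) and Ugdh (122 and 164) had overlapping intervals. Cd44 was at 30.05 and 139 with separate intervals, the same direction as its values in Pi16-gated cells, 55.1 and 83.3. Myeloid markers also stood higher in callus than in intact Col15a1-gated cells. The monocyte-macrophage list was at 0 CPM intact and 150 callus, the granulocyte-monocyte progenitor list at 6.93 and 184, and Lyz2 at 4.62 and 696. The globins Hbb-bs (13897 and 125) and Hba-a1 (3693 and 24.4) went the other way. The part of myeloid transcripts in the Cd44 values was not tested. The callus group here held 33 cells, and 1 cell carried 32.8% of its Has1 and 57.9% of its Has2 UMIs.

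The third question was whether single Pi16-gated cells carried several of these genes at once. Of the 6 genes Has1, Has2, Ugdh, Gfpt2, Tnfaip6 and Ptx3, at least 3 were found in 68.6% (61.5 to 75.0) of intact and 49.6% (40.3 to 58.9) of callus Pi16-gated cells after thinning. The shares were 10.53% (3.96 to 21.5) and 12.1% (3.40 to 28.2) of Col15a1-gated cells and 4.55% of 22 Thbs4-gated cells. None of 34 BMSC-gated cells held 3, and 70.6% of them held 0. All 6 were seen together in 7.22% of intact and 2.52% of callus Pi16-gated cells. These 6 were the genes 2-fold or more higher in intact Pi16-gated than Col15a1-gated cells. Larger counts in intact Pi16-gated cells therefore follow from that choice. The shares expected if the genes were independent were not computed, so these shares alone do not show joint carriage.

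**Figure D3:**
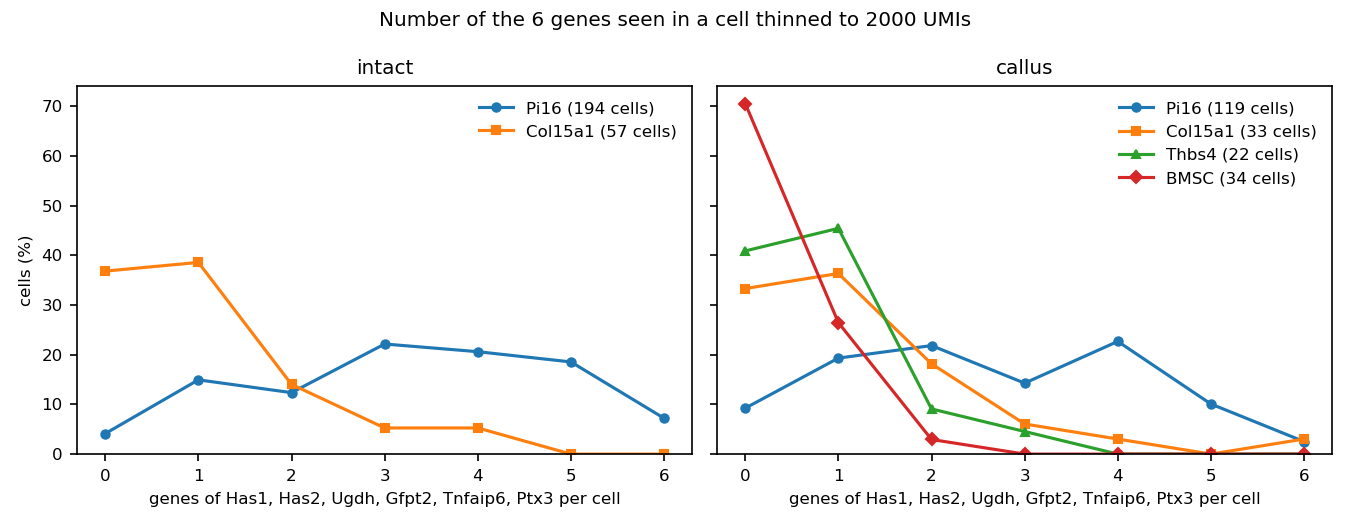
Share of thinned cells (y axis, percent) that held 0 to 6 of the genes Has1, Has2, Ugdh, Gfpt2, Tnfaip6 and Ptx3 (x axis), by stromal type and library. Pi16-gated cells have a median of 3 genes intact and 2 in the callus, against 1 in Col15a1-gated and Thbs4-gated cells and 0 in BMSC-gated cells.

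Pairs were compared with the number of cells expected to hold both if each gene were spread over the Pi16-gated cells without regard to the other. Of 27 intact pairs with at least 5 cells expected, 25 exceeded that number, with a median ratio of 1.14 and a range of 0.98 to 1.58. Of 25 callus pairs, 21 did, with a median of 1.15 and a range of 0.79 to 1.49. All pairs share the same cells, whose depth before thinning differs. The share of other gene pairs above expectation in these cells was not computed. The counts therefore cannot be read as particular to these genes.

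Has1 was set beside the genes of the crosslinked matrix first. Has1 and Ptx3 were found together in 48 intact cells where 32.3 were expected (1.48), and Ptx3 was seen in 49.0% of cells with Has1 and 16.7% of cells without it. In the callus they met in 13 cells where 10.9 were expected (1.19). This callus ratio rests on few cells. Over the other settings it was lowest, at 0.97, when a cell was counted from 2 UMIs. It was highest, at 1.85, with a margin of 2 times between stromal types. The intact ratio ran from 1.22 to 1.79. Has1 and Tnfaip6 were found together in 73 intact cells where 58.1 were expected (1.26) and in 38 callus cells where 27.2 were (1.40). Both synthases met in 43 intact cells where 33.3 were expected (1.29) and in 13 callus cells where 9.98 were (1.30). Gfpt2 and Tnfaip6 had ratios of 1.15 and 1.29, and Tnfaip6 and Ptx3 1.27 and 1.49. Has1 and Vcan met at ratios of 1.07 and 1.01, and Gfpt2 and Vcan at 0.99 and 0.98. Has2 and Vcan had ratios of 1.31 and 1.13, and Ptx3 and Vcan 1.31 and 1.14. The highest intact ratio was that of Has1 and Cd44, found together in 12 cells where 7.58 were expected (1.58). In the callus Has1 and Cd44 met in 8 cells where 6.81 were expected (1.18).

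**Figure D4:**
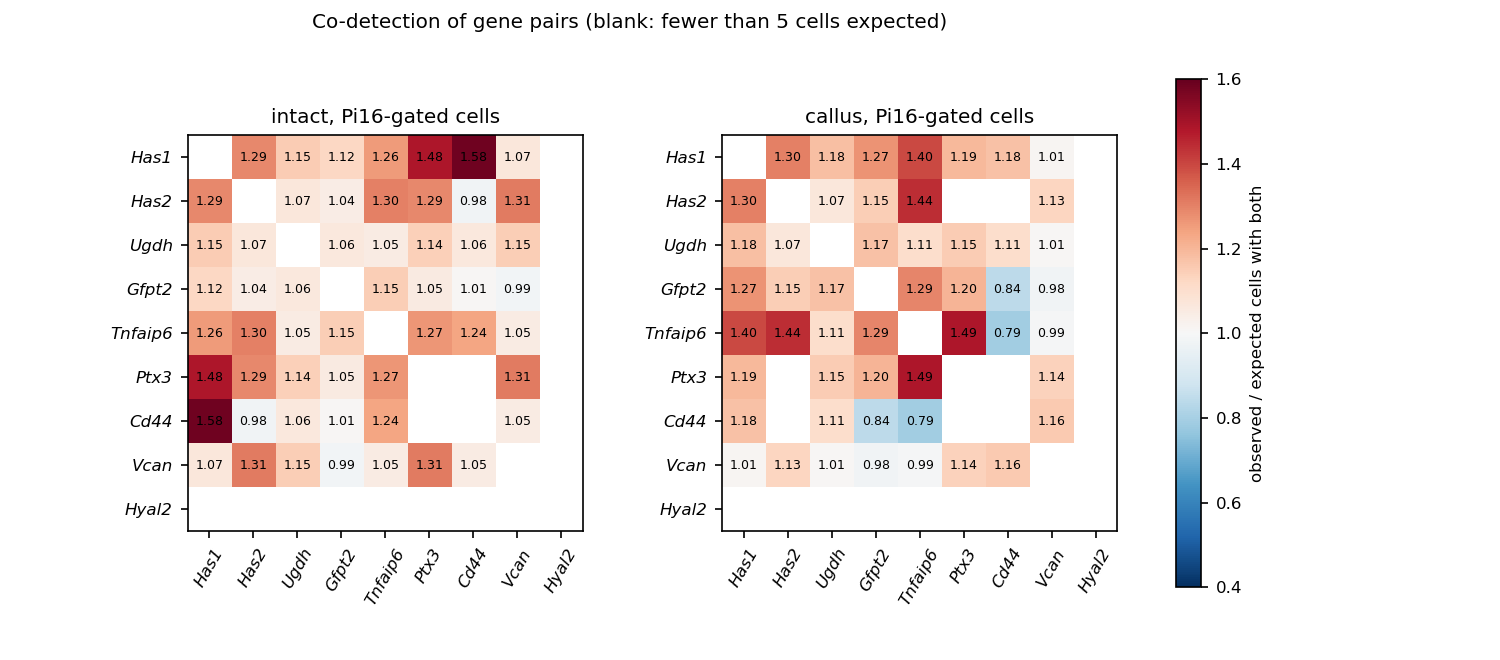
Cells with both genes over the number expected for independent detection, for each pair in thinned Pi16-gated cells of the intact (194 cells) and callus (119 cells) library; blue is below 1, red above 1, and pairs with fewer than 5 expected cells are blank. Has1 with Ptx3 reads 1.48 in the intact and 1.19 in the callus library.

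Cells with a Has1 UMI were then set beside those without. In the intact library Ptx3 was at 806 CPM (685 to 942) in 98 cells with Has1 and 156 (105 to 223) in 96 without, and Tnfaip6 at 1474 (1309 to 1655) and 458 (368 to 565). Ugdh was at 1597 and 766, Gfpt2 at 923 and 562, and Has2 at 332 and 167. In the callus, Tnfaip6 was at 1019 (837 to 1228) in 54 cells with Has1 and 531 (413 to 672) in 65 without, Gfpt2 at 778 and 323, Ugdh at 1667 and 885, and Has2 at 250 and 76.9. Callus Ptx3 did not part the cells, at 222 (142 to 331) and 192 (125 to 284). Vcan intervals overlapped in both libraries.

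**Figure D5:**
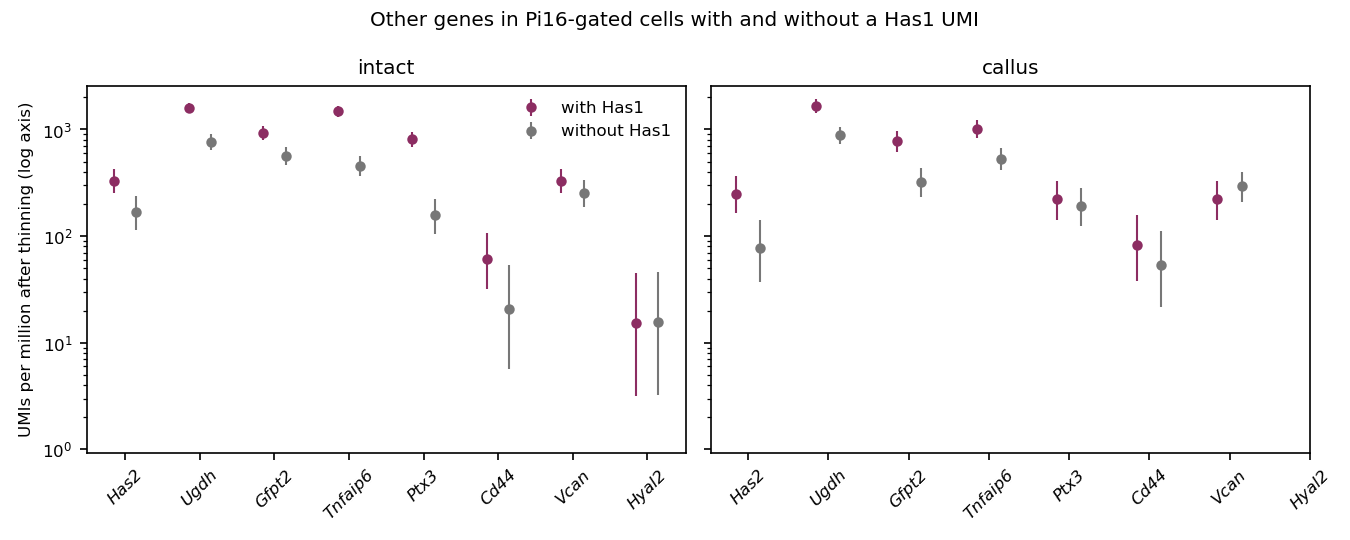
Level of the other genes, in CPM on a log axis, in thinned Pi16-gated cells with (purple) and without (grey) a Has1 UMI, in the intact and callus library; bars are exact Poisson 95% intervals and Hyal2 had 0 UMIs in both callus groups. Intact Ptx3 stands at 806 with and 156 without Has1, and callus Ptx3 at 222 and 192.

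The cells with Has1 differed in more than these genes. The NF-κB and cytokine list was at 5393 CPM in intact cells with Has1 and 1776 in those without, and at 4037 and 2069 in the callus. The immediate-early list was at 24429 and 12297 intact and 23352 and 13223 callus. Median depth before thinning was 9024.5 and 7134.5 UMIs intact and 9332 and 6609 callus. The blood transcripts went opposite ways, at 7765 and 1964 intact and 4602 and 6277 callus. Pi16, the adventitial marker, was at 3398 and 3880 intact and 2250 and 2777 callus, and Clec3b, whose locus drives the Cre, at 1306 and 1734 intact and 1759 and 1846 callus. The part of depth and of these lists in the co-detection was not tested.

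Leaving out the 9 genes themselves, those most like Has1 in intact Pi16-gated cells, by the correlation of detection (phi) over 194 thinned cells of 1 library and 5305 genes, were Ifrd1 (0.48), Junb (0.46), Nfkbia (0.43), Egr1 (0.42) and Ccnl1 (0.40). Junb and Egr1 are immediate-early transcription factors and Nfkbia encodes the inhibitor of NF-κB. Their callus values over 119 cells were 0.34, 0.39, 0.32, 0.45 and 0.39. Among all 5305 genes Ptx3 stood at rank 14 and Tnfaip6 at rank 18 for Has1 in the intact library. For Ptx3 the leading genes were Atf3 (0.39 intact and 0.36 callus), the cytokine Il6 (0.34 and 0.48), Ifrd1 (0.33 and 0.25), and the chemokines Ccl2 (0.32 and 0.08) and Cxcl1 (0.31 and 0.29). Has1 itself was at rank 2 for Ptx3 in the intact library (0.34) and at rank 933 in the callus (0.089). For Tnfaip6 they were Zfp36 (0.33 and 0.35), Junb (0.33 and 0.31), Egr1 (0.32 and 0.45), Nfkbia (0.31 and 0.40) and Cebpd (0.31 and 0.23), with Has1 at rank 4 intact (0.31) and rank 10 callus (0.36). Phi can come near 1 only for 2 genes seen in about as many cells.

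Across 29 cell type and library values, where types share a library, the other genes whose log2 level followed Has1 most closely were Col14a1, Sema3c, Spon2, Arsi and Osr2, with Pearson r from 0.95 to 0.96. Sema3c is one of the Pi16 gate's markers. Among the genes described here the nearest were Tnfaip6 with r of 0.94, Has2 with 0.92, Gfpt2 with 0.88 and Ugdh with 0.86. Vcan followed with 0.82 and Ptx3 with 0.77, while Hyal2 and Cd44 stood at 0.13 and 0.11.

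The rest of the hyaluronan pathway was read from lists of other genes. Of 11 enzymes and transporters that lead from hexose to the nucleotide sugars, 3 were 2-fold or more higher in intact Pi16-gated than Col15a1-gated cells and 3 of 10 in the callus, and 0 were lower. Over all genes tested, 10.4% intact and 9.29% callus were higher and 7.46% and 7.78% lower, which stands beside each count of this kind for the lists. Gnpnat1 and Uap1, which follow GFPT on the way to UDP-N-acetylglucosamine, were higher in both. Gnpnat1 was at 148 (129 to 168) and 37.0 (21.1 to 60.1) CPM intact, and 142 (120 to 167) and 31.3 (14.3 to 59.5) callus. Uap1 was at 415 (384 to 449) and 178 (140 to 222) intact, and 348 (313 to 386) and 132 (93.6 to 181) callus. Ugp2, which makes UDP-glucose, the substrate of UGDH, had log2 ratios of 0.82 intact and 1.29 callus. The list's median log2 ratio was 0.46 and 0.19.

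The remaining turnover genes were nearly silent in fibroblasts. Of the 6 genes Has3, Hyal1, Hyal3, Cemip, Cemip2 and Spam1, 0 reached 20 UMIs over Pi16-gated and Col15a1-gated cells of either library. The third synthase, Has3, had 0 UMIs in Pi16-gated cells of both. Of 7 other receptors, 3 could be compared intact, with 1 higher and 1 lower, and 1 in the callus, with 0 higher or lower. Tlr2 was the higher one, at 22.0 (15.3 to 30.8) CPM in intact Pi16-gated cells and 6.93 (1.43 to 20.3) in Col15a1-gated cells, with overlapping intervals. Tlr4 was at 42.8 (33.1 to 54.4) CPM in intact Pi16-gated cells and Layn, which encodes layilin, at 2.59 against 39.3 (22.9 to 62.9) in Col15a1-gated cells. Of 14 link and matrix partners 3 could be compared, and fibrillin 1 (Fbn1) alone was 2-fold higher in Pi16-gated cells of both libraries, at 3375 and 1139 CPM intact and 3383 and 1159 callus. Itih5, of the inter-alpha-inhibitor heavy chain family, was at 773 and 1472 intact and 649 and 1061 callus. Of 6 proteases of the versican-cleaving family 4 could be compared, with 0 higher and 1 lower intact and 2 higher and 1 lower in the callus. Adamts4 was the lower one in both libraries, at 9.72 and 30.05 intact and 13.6 and 132 callus. The 2 higher in the callus were Adamts5, at 1220 and 404, and Adamts15, at 80.4 and 27.8, and in the intact library they stood at 1274 and 714 and at 38.9 and 34.7. Of the NF-κB and cytokine list 4 of 14 were higher and 1 lower intact, and 3 of 14 higher and 2 lower in the callus, with Cxcl2 and Ccl2 higher in both, beside the same 10.4% and 9.29% higher and 7.46% and 7.78% lower of all genes. Cxcl2 was seen in only 4.07% of Pi16-gated cells of both libraries together. It stood at 58.9 intact and 31.0 callus CPM there, 2.31 and 3.48 in Col15a1-gated cells and 652 and 193 in blood cells. Of the 16 immediate-early genes 0 were higher, and 7 intact and 3 callus genes were lower, Fosb and Jun in both.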

How the data were processed

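Per the file headers and labels, the authors aligned 10x 3′ reads to mm10 with Cell Ranger 6.0.0 and deposited raw UMI counts per gene and barcode, with no normalization and with replicate mice pooled. From these counts, barcodes with 500 or more genes and a mitochondrial share of up to 10% entered the analysis. Each cell was scored as the mean log2 of 1 plus UMIs per 10000 over marker lists and gated where its best score led the next by 1.5 times between lineages and 1.25 times between stromal types, with at least 3 markers seen. Doublets were not removed in the main values. Levels are pooled counts per 1000000 (CPM) and folds were counted from 2-fold, over genes with at least 20 UMIs in the 2 groups together. With 1 library per group no test across samples exists, so no p-value is given. Intervals are 95% and speak of counting error alone. Cells were thinned to 2000 UMIs for shares and pairs, leaving out 20 intact and 11 callus Pi16-gated cells. Cells of 1 library are not replicates.

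The genes, lists and comparisons were chosen with earlier results of these data known. All 9 genes are named. Of other lists, the 3 with the largest share of Pi16-gated cells and those at least 2-fold apart the same way in both libraries could be named, besides the 5 genes most like Has1, Ptx3 and Tnfaip6. Scripts used Python 3.11.15, NumPy 2.4.6, SciPy 1.17.1 and Scanpy 1.11.5, and were tested on simulated data. Gene positions are from GENCODE on GRCm38, which matched 32158 of 32285 gene identifiers, and promoter windows are from RefSeq, which matched 8 of the 9 genes. Alternatives changed the cell filters, stromal margins, typing, doublets, thinning, the count for a positive cell, the fold and the averaging.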

Additional observations from a re-analysis of the deposited data

Results flagged for a closer look

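Several genes stood in opposite directions between callus and intact cells of the 2 fibroblast gates, which drew a closer look; none of these differences was tested, since each group is 1 library. The log2 ratio of callus over intact was -0.20 in Pi16-gated and 1.23 in Col15a1-gated cells for Has1, -0.54 and 0.84 for Has2, -0.052 and 0.42 for Ugdh, -1.26 and 3.91 for Ptx3, and 0.28 and -0.47 for Vcan. For Ptx3, 72.5% of the callus Col15a1-gated UMIs came from 1 cell, and the intact value rested on 4 UMIs. Callus and intact intervals overlapped for Ugdh and Vcan in both gates and for Has2 in Col15a1-gated cells. The Pi16-gated ratio of Ugdh was 0.14 averaged over cells, and that of Vcan -0.023 with types from clusters. Cd44 had a log2 ratio of Pi16-gated over Col15a1-gated cells of 0.87 in the intact and -0.74 in the callus library, with overlapping intervals in each.

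Barcodes left out by the cell filters also carried UMIs of the genes. The 665 intact barcodes left out held 8 UMIs of Has1, 4 of Has2, 29 of Ugdh, 10 of Gfpt2, 13 of Tnfaip6, 7 of Ptx3 and 5 of Vcan. The 692 callus barcodes left out held 41 of Has1, 7 of Has2, 39 of Ugdh, 18 of Gfpt2, 12 of Tnfaip6, 11 of Ptx3, 57 of Cd44, 13 of Vcan and 5 of Hyal2.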

How the results depend on the processing

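Each value was recomputed under up to 18 other settings, 2 of them chosen after seeing the data. Of the 436 log2 ratios whose setting could move them, so leaving out the fold and the minimum, 391 stayed within the counting interval of the first value and 45 moved beyond it, with 0 called ratios changing sign. Averaging over cells moved 16, typing from Pi16 and Col15a1 UMIs alone 11, typing by clusters 10 and a margin of 2 times between stromal types 6. Thinned shares depend on depth by construction. In intact Pi16-gated cells, thinning to 1000 UMIs gave 34.6% with Has1, 19.9% with Ptx3 and 44.1% with Tnfaip6, and thinning to 4000 gave 62.6% with Has1 and 77.8% with Tnfaip6. In the callus, 1000 UMIs gave 36.2% with Has1 and 35.4% with Tnfaip6, and 4000 gave 58% and 61%. Counting a cell from 2 UMIs gave 34.0%, 19.1% and 40.7% intact and 29.4%, 11.8% and 31.9% callus, for Has1, Ptx3 and Tnfaip6. The callus count of genes higher in Pi16-gated than Col15a1-gated cells was 7 with types from Pi16 and Col15a1 UMIs alone and at 1.5-fold, and 1 gene was lower with a margin of 2 times, at 1.5-fold, averaged over cells and with no minimum. In callus over intact, 1 gene was lower with a margin of 2 times or types from UMIs alone, 0 at 3-fold, and 1 was higher at 1.5-fold. Against callus blood 0 were lower at 3-fold or without the highest Scrublet scores. Of the 5 genes most like Tnfaip6, 3 kept a callus phi of at least 0.2 with looser filters, and of those most like Ptx3, 2 did without cells rich in blood transcripts. No paired analysis was possible because each condition has 1 library. The callus over intact ratio of Hyal2, on 18 and 5 UMIs, was limited by depth.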
